A study of Mus musculus with 12 samples.

Results

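Mammary organoids grown with 3 µM CHIR99021 contained transcripts of 45 genes that were at or near 0 reads in the vehicle cultures and that lie outside the best known epidermal gene families. The genes were chosen by their raw read counts, as those with at most 10 reads summed over the 3 vehicle libraries and at least 50 reads in each of the 3 libraries at 3 µM. Of 25210 genes in the table, 8799 met the first limit and 84 met both, which is 0.955% of the 8799. Another 39 of the 84 were left out: 32 lie between 90 and 94.5 Mb of chromosome 3, where the epidermal differentiation complex is, and 7 more have symbols that begin with Calm, Col, Dsc, Dsg, Gjb, Klk, Krt, Lypd, Mmp, Serpinb, Spink or Tgm. Because 3 µM and vehicle values selected the genes, the difference between these treatments is described here and was not tested.

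Epithelial organoids from the mammary glands of virgin female FVB/N mice, 8 to 11 weeks old, were cultured in growth-factor reduced Matrigel with minimal medium. For 7 days they received dimethyl sulfoxide (DMSO, the vehicle) or CHIR99021 at 1, 1.5 or 3 µM. The 3 cultures were made from 3 animals and each was split over the 4 treatments, so the replicate number stands for the animal, and 12 libraries were sequenced (poly(A) RNA, stranded kit). Sample titles also tag replicate 1 as med, replicate 2 as min and replicate 3 as max in every group. What these tags mean is not given in the sources used here, so they cannot be told apart from the animal. All 4 groups share the strain, matrix and medium, and no allele or transgene is given in the labels.

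CHIR99021 inhibits the kinase GSK3, which marks β-catenin for destruction, and so raises WNT/β-catenin signalling. Mammary epithelium is of ectodermal origin, like the epidermis, and can take on squamous (skin-like) features when this pathway is overactive. In the outer epidermis, keratinocytes build a cornified envelope, seal it with oxidised ceramides, hold proteases in check with stefins and serpins, and release interleukins and defensins when stressed.

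The 45 genes lie on 16 chromosomes, and 43 are protein coding in the deposited table. Their products fall into 5 cytokines, 3 defensins, 5 lipid enzymes, 5 protease inhibitors, 2 proteases, 2 transcription factors, 6 proteins of intracellular signalling or ubiquitin transfer, 4 of the immune cell surface or cell death, 6 other metabolic proteins and 7 with little known function. The rule removed 1 locus and a set of names, not every skin gene. Gm5478 starts 28.7 kb from the type II keratin gene Krt6b, Gm94 lies 40.0 kb from the Kazal inhibitor gene Spink3, Psors1c2 lies 17.5 kb from Cdsn (corneodesmosin), and Alox12b lies 7.87 kb from its partner lipoxygenase gene Aloxe3. "Outside epidermal loci" therefore holds only for the locus and names listed above. In GENCODE M21, 13 of the 45 overlap a gene on the other strand (Acer1, Fam83c, Fndc9, Gm11992, Gm5478, Hsd17b2, Il1a, Papl, Pnpla1, Pou3f1, Sox15, Tmprss11e and Uox) and 17 overlap any gene. Whether reads were counted by strand is not given in the sources used here, so values of the 13 may hold reads of the partner.

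Among the 45 genes, 17 had another of them within 500 kb, in 7 neighbourhoods. These were Csta1, Gm5416 and Stfa2 on chromosome 16, Defb14, Defb6 and Defb3 on chromosome 8, Il1f8 and Il1f6 on chromosome 2, Serpina9 and Serpina12 on chromosome 12, Papl and Nccrp1 on chromosome 7, Tmprss11d and Tmprss11e on chromosome 5, and Rnf222, Alox12b and Sox15 on chromosome 11. The defensins and the stefins arose by gene duplication. Defb6 and Defb3 were first detected at different doses, though for Defb3 this rests on few reads, and Csta1 and Stfa2 differed in level. The promoter windows of these 4 genes are printed to show how alike such neighbours are upstream. Each is the 250 bases before the transcription start in the RefSeq annotation of GRCm38.p6, written 5′ to 3′ on the gene's strand, with CTTTGA or its reverse complement in capitals. Defb6 is chr8:19225228-19225477 and Defb3 is chr8:19293111-19293360, both on the plus strand, and Csta1 is chr16:36131190-36131439 and Stfa2 is chr16:36408364-36408613, both on the minus strand.
Defb6: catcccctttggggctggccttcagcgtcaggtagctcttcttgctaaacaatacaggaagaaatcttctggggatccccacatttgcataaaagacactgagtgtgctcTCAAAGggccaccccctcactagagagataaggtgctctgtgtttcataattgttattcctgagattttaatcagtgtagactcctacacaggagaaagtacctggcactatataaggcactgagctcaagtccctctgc
Defb3: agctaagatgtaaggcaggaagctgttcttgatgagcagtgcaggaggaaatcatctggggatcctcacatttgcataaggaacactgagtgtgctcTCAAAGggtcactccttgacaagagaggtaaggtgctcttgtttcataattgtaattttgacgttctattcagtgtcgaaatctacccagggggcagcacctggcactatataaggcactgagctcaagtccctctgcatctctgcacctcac
Csta1: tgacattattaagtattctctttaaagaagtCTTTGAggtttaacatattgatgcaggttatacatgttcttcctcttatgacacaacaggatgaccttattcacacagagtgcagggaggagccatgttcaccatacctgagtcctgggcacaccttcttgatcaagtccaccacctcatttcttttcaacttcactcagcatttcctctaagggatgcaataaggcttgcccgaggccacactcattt
Stfa2: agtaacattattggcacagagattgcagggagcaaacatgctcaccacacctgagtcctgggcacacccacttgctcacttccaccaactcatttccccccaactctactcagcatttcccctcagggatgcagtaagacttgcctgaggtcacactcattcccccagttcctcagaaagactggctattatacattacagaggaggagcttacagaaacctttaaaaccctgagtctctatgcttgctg

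In a local alignment, the Defb6 and Defb3 windows were 83.8% identical over 222 columns, and the Csta1 and Stfa2 windows were 82.2% identical over 157 columns. The unrelated pair of Csta1 and Defb6 gave 56.8% over 148 columns. The letters CTTTGA are the core of the motif bound by TCF/LEF partners of β-catenin. They begin 140 bases before the start of Defb6, 153 before that of Defb3 and 219 before that of Csta1, and are not in the Stfa2 window. The alignment covered bases 156 to 2 before the start of Csta1 and 246 to 90 before that of Stfa2. It did not reach the Csta1 match, so like positions of these 2 genes were not compared there. RefSeq windows were matched for 29 of the 45 genes. CTTTGA, sought on both strands, was in 9 of the 29 (31.0%) against 13.8% of all 32851 windows of this length. The AP-1 motif TGANTCA was in 4 of 29 (13.8%, all windows 6.75%) and TATAAA in 4 of 29 (13.8%, all windows 12.4%). Tmprss11d held both CTTTGA and TGANTCA, which can overlap by the letters TGA, and Rbp2 held CTTTGA and TATAAA. A match is a description of the sequence only.

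Library totals ran from 10.1 to 24.5 M reads (M, mega). Levels below are reads per M reads of the library (CPM), on library sizes corrected with edgeR's TMM factors. Epithelial markers (6 genes summed) ran from 3269 to 5640 CPM in DMSO and from 16283 to 33005 CPM at 3 µM. This was not general: mean Krt14 went from 1091 to 15636 CPM and Krt5 from 805 to 8633 CPM, while Epcam went from 466 to 604 CPM, Cdh1 from 462 to 612 CPM, Krt8 from 825 to 492 CPM and Krt18 from 589 to 423 CPM. The summed fibroblast markers ran from 1548 to 20187 CPM in DMSO and from 164 to 4484 CPM at 3 µM. The collagen genes made up most of this sum in DMSO. Their means went from 4260 to 411 CPM (Col3a1), 2425 to 491 CPM (Col1a2) and 2253 to 410 CPM (Col1a1). Pdgfra went from 215 to 73.8 CPM and Lum from 186 to 71.2 CPM, while Dcn went the other way, from 294 to 400 CPM. Markers of cells other than epithelium were thus present in every library. In bulk RNA, fewer cells of a type and less RNA per cell cannot be told apart, and the part these markers play in the values below was not tested.

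The 45 genes were nearly absent without CHIR99021 and their summed level was higher at each dose than at the one before. It was 5.42, 2.94 and 2.91 CPM in the 3 DMSO libraries and 62.0, 75.0 and 20.9 CPM at 1 µM. It was 536, 621 and 215 CPM at 1.5 µM and 2007, 1958 and 972 CPM at 3 µM, where they held 0.175, 0.165 and 0.0892% of all reads. The groups did not overlap, and replicate 3 was the lowest library at each CHIR99021 dose. No gene had 10 reads in a DMSO library, and the highest count there was 8. At least 10 reads were seen for 36, 34 and 13 genes in the 1 µM libraries, for 43, 45 and 41 at 1.5 µM and for all 45 in each 3 µM library.

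**Figure D1:**
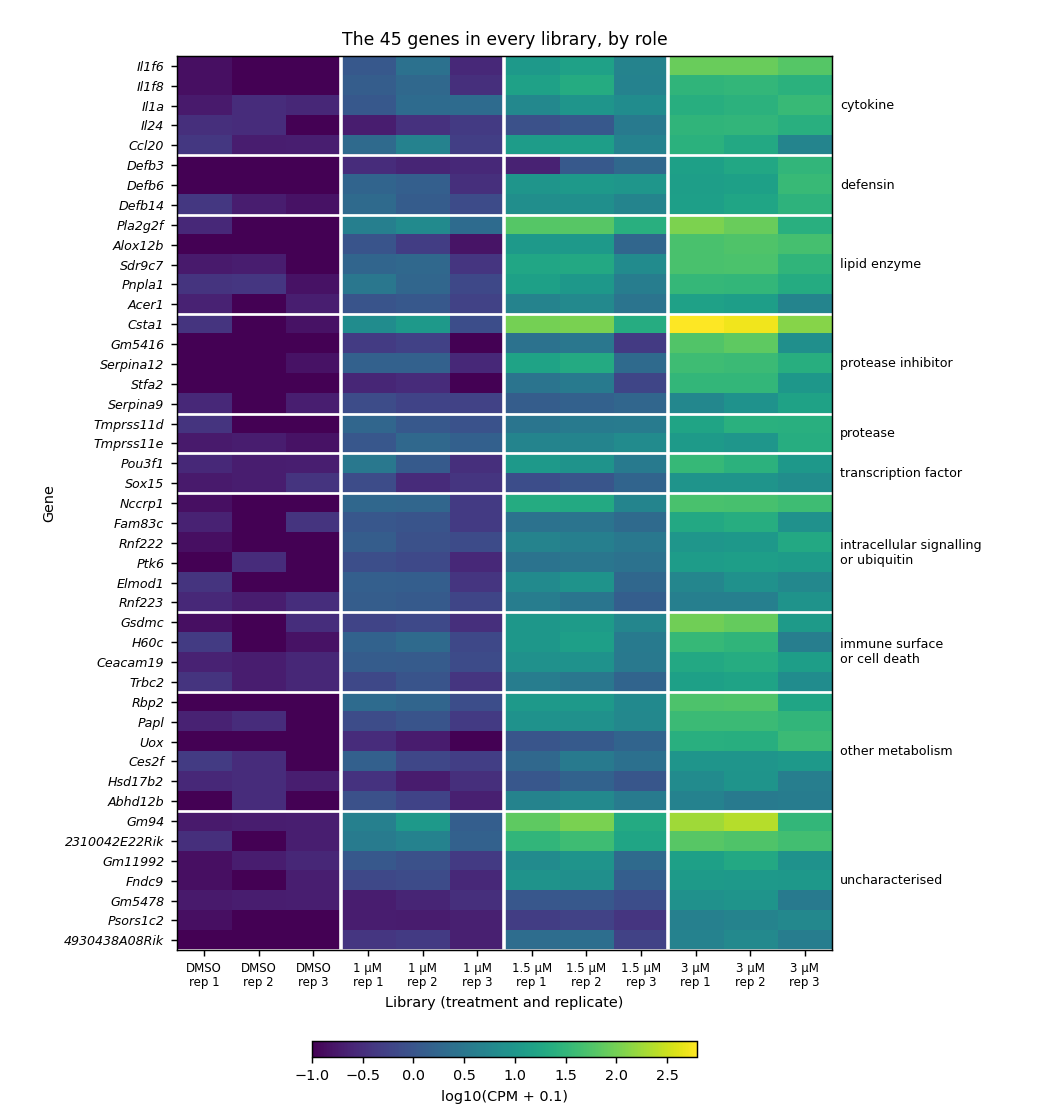
Level of each of the 45 genes (rows, by role) in each of the 12 libraries (columns), as log10 of CPM plus 0.1. Colours brighten from DMSO to 3 µM, and replicate 3 is darker than replicates 1 and 2 for most genes at 1 and 1.5 µM.

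There were 8 genes with 0 reads in all 3 DMSO libraries: Defb3, Defb6, Alox12b, Rbp2, Uox, Gm5416, Stfa2 and 4930438A08Rik. Over 50.1 M reads, a count of 0 allows a level of up to 0.0589 CPM on the TMM-corrected library sizes (3 reads, counting error only). At the other end, Ccl20, Trbc2 and Pnpla1 had 10 DMSO reads in sum and only just met the limit. The lowest counts at 3 µM were 51 for Gm5478, 54 for Rnf223 and 55 for Abhd12b. Just outside the rule lay Cxcl3, Prl8a9 and Gad1, with 47, 46 and 44 reads in their lowest 3 µM library, and Foxn1, 4732456N10Rik and 2310002J15Rik, with 11 DMSO reads each.

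Most of the genes were already present at the lowest dose. A gene was taken as detected at a dose with over 10 reads in sum and at least 3 in each library, there and at every higher dose. By this measure 34 of the 45 (75.6%) were first detected at 1 µM, 10 (22.2%) at 1.5 µM and 1, Defb3, at 3 µM. The 10 of the middle dose were 4930438A08Rik, Abhd12b, Alox12b, Gm5416, Gm5478, Hsd17b2, Il24, Psors1c2, Stfa2 and Uox. All lipid enzymes except Alox12b, all cytokines except Il24, both transcription factors, both proteases, all 6 signalling or ubiquitin proteins and all 4 immune surface or cell death proteins were in the 1 µM set. Of the 39 genes left out by locus or name, 23 (59.0%) were first detected at 1 µM, 14 (35.9%) at 1.5 µM and 2 (5.13%) at 3 µM, a difference that was not tested. Of all 8799 genes at or under the DMSO limit, which include both sets, 120 were first detected at 1 µM and 97 at 1.5 µM. Another 150 were first detected at 3 µM and 8432 at no dose. Both sets were chosen by at least 50 reads in each 3 µM library, which favours genes with many reads. Their high share at 1 µM may therefore come from the choice of genes, and nothing is read from it. The dose depends on the count needed, because levels at 1 µM were low. With at least 50 reads required in each library, 0 genes were first detected at 1 µM, 22 at 1.5 µM and 23 at 3 µM, and with reads scaled to the smallest library total the counts were 25, 19 and 1.

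**Figure D2:**
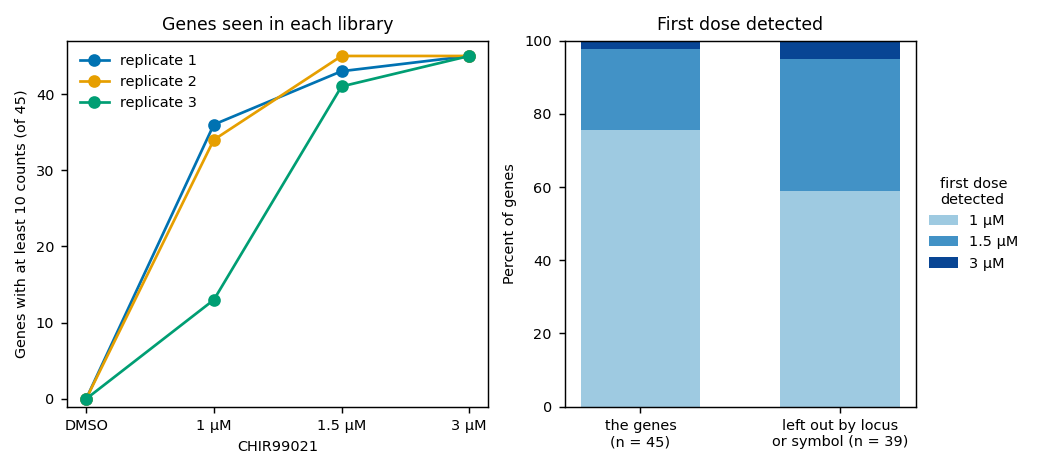
Left, number of the 45 genes with at least 10 reads in each library (points, 3 replicates per treatment). Right, percent of the 45 genes and of the 39 genes left out by locus or name that were first detected at 1, 1.5 or 3 µM. Replicate 3 at 1 µM had 13 genes, against 36 and 34 in the other 1 µM libraries.

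At 1 µM, 36 of the 45 genes had all 3 libraries above all 3 DMSO libraries. The same held for 11.2% of the 15316 genes that passed the filter on low counts, but DMSO values selected the genes, so nothing is read from the difference. The 9 whose libraries overlapped or tied were Abhd12b, Gm5416, Gm5478, Hsd17b2, Il24, Ptk6, Sox15, Stfa2 and Uox. Among genes first detected at 1 µM, the highest mean levels at that dose were those of Csta1 (6.13 CPM), Gm94 (5.58 CPM), Pla2g2f (4.26 CPM), 2310042E22Rik (3.27 CPM), Ccl20 (2.35 CPM) and Pnpla1 (1.79 CPM).

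The step from 1 to 1.5 µM compares libraries that the choice of genes did not use. It was tested with edgeR's quasi-likelihood test over all genes, with Benjamini-Hochberg adjustment. All 12 libraries entered the fit, so the DMSO and 3 µM libraries that selected the genes also entered the filter on low counts and the estimate of spread. Of the 45 genes, 29 were higher at 1.5 µM at an adjusted p under 0.05, against 679 of 15316 genes (4.43%), and 0 were lower (also 0 at an unadjusted p under 0.05, and 0 by DESeq2). The median log2 fold change was 2.73 for the 45 genes, with a range of 1.42 to 4.35, and −0.01 over all genes tested. In 43 of the 45 the libraries of the 2 doses did not overlap (19.3% of all genes tested), the exceptions being Gm5416 and Defb3, and 44 were higher in each of the 3 cultures (33.1% of all genes tested). The exception in the last count was Defb3. With the replicate number as a block, which compares doses within each animal, 43 of the 45 were called, against 11.3% of all genes. The 43 include 4930438A08Rik, Defb3, Gm5416, Psors1c2 and Stfa2. These passed the filter on low counts only through their levels at 3 µM, so their calls are not free of the choice of genes. The 2 not called with the block were Rnf223 (adjusted p = 0.0652) and Sox15 (adjusted p = 0.0667).

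The fit with the replicate block was not repeated with libraries left out. Without the block, the count of called genes rested on single libraries, although the direction did not. It fell to 9, 6 and 10 without replicate 1, 2 or 3 at 1 µM, and to 7 and 6 without replicate 1 or 2 at 1.5 µM. The share called over all genes tested fell as well, from 4.43% with all libraries. It was 1.04, 0.752 and 1.25% in the first 3 of these fits and 0.974 and 1.28% in the last 2. In each of these 5 fits all 45 log2 fold changes stayed above 0. With only the 6 libraries of the 2 doses, 40 of the 45 passed the filter and 18 were called, against 4.95% of all genes. The 5 that did not pass, 4930438A08Rik, Defb3, Gm5416, Psors1c2 and Stfa2, had been tested only through their levels at 3 µM, and 1 of them, Psors1c2, was among the 29. Of the other 28, 17 were called with 6 libraries as well, and 11 were not: Alox12b, Fndc9, Gm11992, Gm94, Il1f6, Il1f8, Il24, Nccrp1, Sdr9c7, Serpina12 and Trbc2. Serpina9 was called with 6 libraries only. Papl, Ceacam19, Il1a and 2310042E22Rik were called in all 12 fits that left out 1 library, and all others of the 29 lost the call in at least 1 of these fits.

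**Figure D3:**
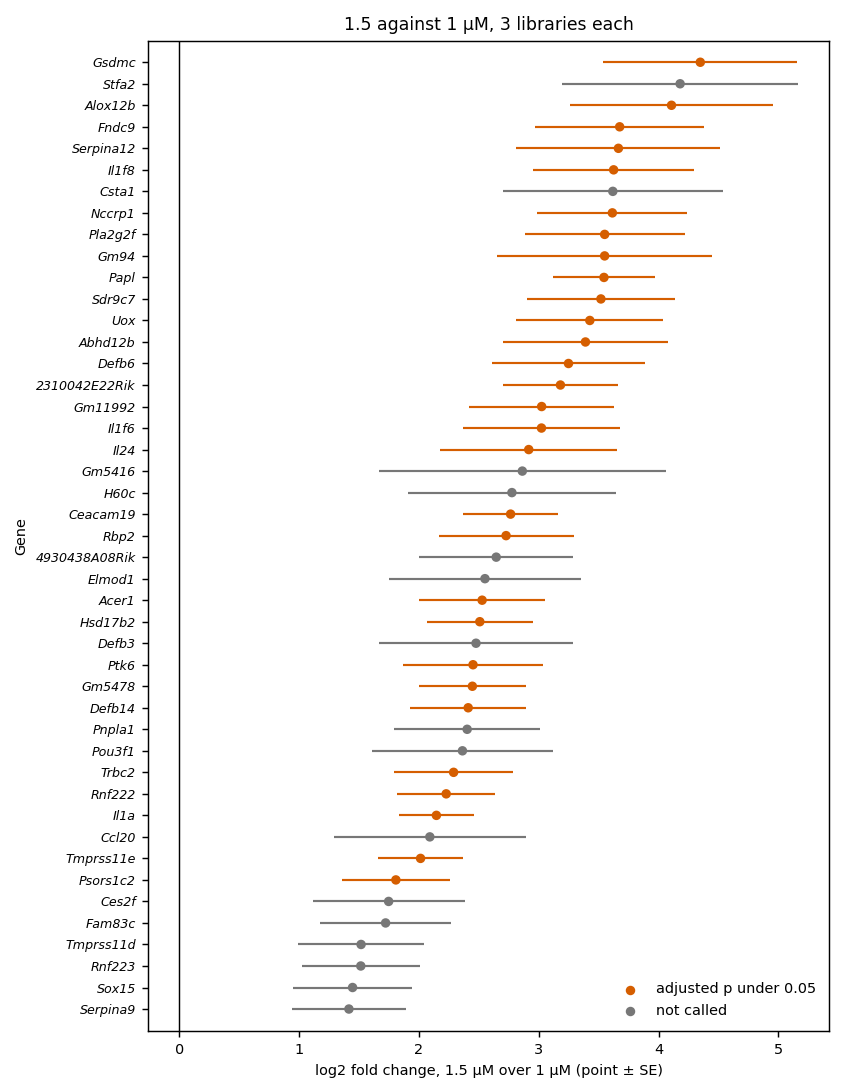
Log2 fold change of each gene between 1.5 and 1 µM (point, with a bar of 1 standard error, 3 libraries per dose), coloured by whether edgeR's adjusted p was under 0.05. All 45 points lie above 0, between 1.42 and 4.35.

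The lowest adjusted p of the 45 belonged to Papl (chr7:28607634-28631332, coordinates of the deposited table, GRCm38), which encodes an acid phosphatase-like protein and is Acp7 in GENCODE M21. Its levels were 0.133, 0.203 and 0 CPM in DMSO, 0.660, 0.877 and 0.341 CPM at 1 µM, 8.47, 8.07 and 5.79 CPM at 1.5 µM, and 38.3, 38.2 and 31.1 CPM at 3 µM. No groups of libraries overlapped, and each step up was seen in all 3 cultures. Errors of log2 changes are standard errors from edgeR. The log2 change of Papl between 1 and 1.5 µM was 3.54 ± 0.427 (edgeR adjusted p = 0.00425). Nccrp1, an F-box-associated protein gene 60.4 kb away, had 1.73, 1.66 and 0.341 CPM at 1 µM, 21.2, 20.1 and 4.98 CPM at 1.5 µM, and 50.9, 49.2 and 41.3 CPM at 3 µM. Replicate 3 was well below the others at 1 and 1.5 µM and near them at 3 µM. The log2 change of Nccrp1 from 1 to 1.5 µM was 3.61 ± 0.625 (edgeR adjusted p = 0.0135, up to 0.0604 without replicate 2 at 1 µM). Nccrp1 overlaps Samd4b on the same strand in GENCODE M21, so some of its reads may be assigned with uncertainty.

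The cytokines were dominated by the interleukin 1 family. Il1f6 encodes IL-36α and Il1f8 encodes IL-36β, epithelial cytokines that activate NF-κB through the IL-36 receptor, and Il1a encodes IL-1α, an alarm signal stored in keratinocytes. Il1f6 (chr2:24215418-24225702) had 1 read in the 3 DMSO libraries together, then 1.02, 2.53 and 0.17 CPM at 1 µM, 11.1, 14.8 and 4.87 CPM at 1.5 µM, and 83.6, 85.2 and 61.5 CPM at 3 µM. Its neighbour Il1f8 (chr2:24153161-24160519), 54.9 kb away, also had 1 read in DMSO, then 1.22, 1.80 and 0.227 CPM at 1 µM, 14.8, 21.2 and 4.63 CPM at 1.5 µM, and 30.7, 32.9 and 26.3 CPM at 3 µM. No groups of either gene overlapped. The pair was at like levels at 1 and 1.5 µM and parted at 3 µM. At 1.5 µM, Il1f6 had reached 13.4% of its 3 µM mean and Il1f8 45.3%. Both rose from 1 to 1.5 µM, Il1f6 by a log2 change of 3.02 ± 0.657 (edgeR adjusted p = 0.0301, up to 0.10 without replicate 1 at 1 µM) and Il1f8 by 3.62 ± 0.672 (edgeR adjusted p = 0.0175, up to 0.0654 without the same library).

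Il1a did not share the low values of replicate 3. It had 1.02, 2.0 and 1.99 CPM at 1 µM, 5.73, 9.45 and 6.95 CPM at 1.5 µM, and 23.4, 27.3 and 35.6 CPM at 3 µM, with replicate 3 the highest at 3 µM. Its log2 change from 1 to 1.5 µM was 2.15 ± 0.311 (edgeR adjusted p = 0.00721). Il24, a cytokine that signals through the IL-20 receptors, was first detected at 1.5 µM. It had 5, 2 and 0 reads in DMSO, 2, 5 and 6 at 1 µM, 12, 26 and 61 at 1.5 µM, and 390, 480 and 361 at 3 µM. The 1 µM and DMSO libraries overlapped, and the 1.5 µM mean was 6.14% of the 3 µM mean. Replicate 3 was the highest for Il24 at 1.5 µM, with 4.01 times the mean of the other 2 libraries. The log2 change of Il24 from 1 to 1.5 µM was 2.92 ± 0.739 (edgeR adjusted p = 0.0499, up to 0.17 without replicate 2 at 1 µM).

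Ccl20, the chemokine that draws cells carrying CCR6, was spread widely between cultures. It had 1.98, 4.68 and 0.398 CPM at 1 µM, 12.2, 13.3 and 4.75 CPM at 1.5 µM, and 26.0, 19.2 and 5.11 CPM at 3 µM. The 1.5 and 3 µM libraries overlapped, and replicate 3 hardly differed between these doses. Its log2 change from 1 to 1.5 µM was 2.09 ± 0.803 (edgeR adjusted p = 0.166, and 0.00474 with the replicate block).

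The 3 β-defensins, secreted antimicrobial peptides, differed in the dose at which they passed the detection limit and were all highest in replicate 3 at 3 µM. Defb6 (chr8:19225478-19228209) had 0 reads in DMSO, 1.57, 1.32 and 0.227 CPM at 1 µM, 9.29, 11.2 and 9.56 CPM at 1.5 µM, and 13.3, 14.1 and 35.7 CPM at 3 µM. Defb3 (chr8:19293360-19295291), 65.2 kb from it, had 0 reads in DMSO, 4, 3 and 3 reads at 1 µM, 2, 27 and 31 at 1.5 µM, and 180, 287 and 455 at 3 µM. Defb14 had 1.98, 1.17 and 0.625 CPM at 1 µM, 7.45, 7.68 and 5.10 CPM at 1.5 µM, and 13.6, 16.7 and 28.0 CPM at 3 µM. As for 8 others of the 45, replicate 3 was the highest at 3 µM, at 1.84 (Defb14), 1.93 (Defb3) and 2.61 (Defb6) times the mean of the other 2 libraries. Defb3 was the only one of the 45 first detected at 3 µM, and this rests on few reads. Its sum at 1 µM was 10 where over 10 was required, and 1 library at 1.5 µM had 2 reads where 3 were required. Without replicate 1, 0 genes were first detected at 3 µM. The 1.5 µM mean of Defb3 was 4.63% of the 3 µM mean, against 34.6% for Defb14 and 47.6% for Defb6. At 3 µM their mean levels per kilobase of exon were 77.5 ± 32.7 CPM for Defb3, 65.1 ± 39.3 CPM for Defb6 and 95.4 ± 37.1 CPM for Defb14 (SD, n = 3), which differ by less than the spread. The step from 1 to 1.5 µM was called for Defb6 (log2 change 3.25 ± 0.642, edgeR adjusted p = 0.0300, up to 0.109 without replicate 2 at 1 µM) and Defb14 (2.41 ± 0.486, edgeR adjusted p = 0.0233, up to 0.106 without the same library). It was not called for Defb3 (2.48 ± 0.813, edgeR adjusted p = 0.130, and 0.0385 with the replicate block). These genes are paralogs, so reads may be shared between them. Defb3 passed the filter on low counts only through its levels at 3 µM, so its p-values are not free of the choice of genes.

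The 5 lipid enzymes have roles in the skin barrier or in suprabasal keratinocytes. Alox12b encodes the lipoxygenase that oxidises the linoleate of acylceramides, Sdr9c7 a dehydrogenase acting on the same lipids, Pnpla1 the transacylase that makes acylceramides, Acer1 an alkaline ceramidase and Pla2g2f a secreted phospholipase. Alox12b had 0 reads in DMSO, 0.863, 0.390 and 0.0568 CPM at 1 µM, 10.7, 10.9 and 1.68 CPM at 1.5 µM, and 50.5, 56.5 and 47.8 CPM at 3 µM. Replicate 3 lagged at 1 µM (0.0907 times the mean of the others) and at 1.5 µM (0.156 times), and was within 1.18 times of them at 3 µM. Sdr9c7 had 1.62, 1.80 and 0.284 CPM at 1 µM, 17.3, 19.2 and 6.66 CPM at 1.5 µM, and 50.3, 52.8 and 30.2 CPM at 3 µM, with no overlap between doses. Both rose from 1 to 1.5 µM, Alox12b by a log2 change of 4.11 ± 0.846 (edgeR adjusted p = 0.0323, up to 0.138 without replicate 2 at 1 µM) and Sdr9c7 by 3.52 ± 0.615 (edgeR adjusted p = 0.0137, up to 0.0561 without the same library).

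Pla2g2f had 69.1% of its 3 µM mean by 1.5 µM. It had 4.27, 6.53 and 1.99 CPM at 1 µM, 62.2, 63.9 and 24.4 CPM at 1.5 µM, and 110, 83.4 and 24.6 CPM at 3 µM. Replicate 3 had 24.4 and 24.6 CPM at these doses, which overlapped. The log2 change from 1 to 1.5 µM was 3.55 ± 0.668 (edgeR adjusted p = 0.0185, up to 0.0694 without replicate 1 at 1.5 µM). Pnpla1 had 3.10, 1.71 and 0.568 CPM at 1 µM, 14.2, 10.5 and 3.94 CPM at 1.5 µM, and 33.1, 32.1 and 21.7 CPM at 3 µM, with no overlap between doses, and missed the threshold between the first 2 doses (edgeR adjusted p = 0.0504, and 0.00156 with the replicate block). Acer1 had 0.780, 4.55 and 11.0 CPM and was called (edgeR adjusted p = 0.0260, up to 0.0920 without replicate 3 at 1 µM).

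A chosen list of barrier lipid enzymes put these genes beside others of the pathway. Of its 22 tested genes, 8 were higher at 1.5 than at 1 µM and 0 were lower (0 at an unadjusted p under 0.05), against 4.43% of all genes tested. The median log2 change was 1.64, against −0.01 over all genes. Without the 4 that belong to the 45, 5 of 18 were higher, with a median of 1.42. These were Abca12, the lipid transporter of lamellar granules (2.09 ± 0.30, edgeR adjusted p = 0.00714), Elovl4, which makes very long fatty acids (2.45 ± 0.353, edgeR adjusted p = 0.00730), Sult2b1, Cyp4f39 and Aloxe3. Unlike the 45 genes these were above the DMSO limit, with Elovl4 at 3.61 CPM and Abca12 at 1.53 CPM in DMSO.

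Among the protease inhibitors was the gene with the highest CPM of the 45, a scale that does not allow for gene length. Csta1 (chr16:36119946-36131241, GRCm38), a stefin A (cystatin A) gene, had 0.267, 0 and 0.0539 CPM in DMSO, 6.91, 10.8 and 0.682 CPM at 1 µM, 99.2, 106 and 22.5 CPM at 1.5 µM, and 619, 520 and 127 CPM at 3 µM. Replicate 3 was the lowest in each CHIR99021 group, and its 3 µM level lay just above replicates 1 and 2 at 1.5 µM, so the doses did not overlap. The neighbouring stefin genes Gm5416 and Stfa2 had no DMSO read. Gm5416 had 7, 9 and 0 reads at 1 µM, 40, 81 and 6 at 1.5 µM, and 732, 1099 and 110 at 3 µM. Stfa2 had 3, 4 and 0 reads at 1 µM, 44, 91 and 9 at 1.5 µM, and 408, 509 and 147 at 3 µM. The mean at 1.5 µM was 18% of that at 3 µM for Csta1, 9.12% for Stfa2 and 4.43% for Gm5416. The step from 1 to 1.5 µM was large but spread in all 3, and none was called without the block. The log2 change was 3.62 ± 0.919 for Csta1 (edgeR adjusted p = 0.0503, and 0.000346 with the block), 4.18 ± 0.988 for Stfa2 (0.0505, and 0.00145 with the block) and 2.86 ± 1.2 for Gm5416 (0.215, and 0.00127 with the block). These stefin genes are paralogs, so reads may be shared between them and values of the single genes are uncertain. Stfa2 and Gm5416 passed the filter on low counts only through their levels at 3 µM, so their p-values are not free of the choice of genes.

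The 2 serpins outside the left-out Serpinb family sit 15.0 kb apart on chromosome 12. Serpina12, which encodes vaspin, an inhibitor of kallikrein 7, had 1.42, 1.41 and 0.17 CPM at 1 µM, 15.9, 20.8 and 1.97 CPM at 1.5 µM, and 41.1, 38.8 and 23.9 CPM at 3 µM. Serpina9 had 0.660, 0.487 and 0.454 CPM at 1 µM, 1.21, 1.42 and 1.68 CPM at 1.5 µM, and 5.65, 8.6 and 15.3 CPM at 3 µM. The neighbours differed in the order of cultures: replicate 3 was the lowest at each CHIR99021 dose for Serpina12 and the highest at 1.5 and 3 µM for Serpina9. Serpina12 rose from 1 to 1.5 µM (log2 change 3.66 ± 0.852, edgeR adjusted p = 0.0360, up to 0.120 without replicate 2 at 1 µM), and Serpina9 did not pass (1.42 ± 0.478, edgeR adjusted p = 0.121, and 0.0468 with the block).

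The 2 proteases, Tmprss11d and Tmprss11e, are type II transmembrane serine proteases of squamous and airway epithelia. Tmprss11e had 0.965, 1.80 and 1.36 CPM at 1 µM, 5.03, 5.07 and 6.66 CPM at 1.5 µM, and 11.7, 9.82 and 23.0 CPM at 3 µM, with no overlap between doses. It rose from 1 to 1.5 µM (log2 change 2.01 ± 0.356, edgeR adjusted p = 0.014, up to 0.0604 without replicate 1 at 1 µM). Tmprss11d had means of 1.16, 3.35 and 22.2 CPM and was not called (1.52 ± 0.528, edgeR adjusted p = 0.132, and 0.0393 with the block). On a chosen list of cornification proteases and their modifiers, 9 of 21 tested genes were higher at 1.5 than at 1 µM and 0 lower (0 at an unadjusted p under 0.05), with a median log2 change of 2.01 (all genes tested: 4.43% higher, median −0.01). Outside the 45 genes this was 8 of 18, with a median of 1.68, and they included Asprv1, the protease that processes profilaggrin (2.92 ± 0.577, edgeR adjusted p = 0.0219), and Cst6, cystatin M/E (2.30 ± 0.303, edgeR adjusted p = 0.00619).

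Only 2 of the 45 genes encode transcription factors. Pou3f1, the POU factor also called Oct6, which is expressed in suprabasal epidermis, had 4, 1 and 2 reads in DMSO, then 3.15, 1.07 and 0.227 CPM at 1 µM, 10.8, 8.91 and 3.42 CPM at 1.5 µM, and 34.3, 26.8 and 10.4 CPM at 3 µM. Replicate 3 was the lowest at each dose, and its 3 µM level lay between replicates 1 and 2 at 1.5 µM. Sox15 had 2, 1 and 5 reads in DMSO, 13, 4 and 5 at 1 µM, 11, 23 and 27 at 1.5 µM, and 115, 141 and 105 at 3 µM. Its DMSO, 1 and 1.5 µM libraries were all low, and the 1.5 µM mean was 12.4% of the 3 µM mean. Neither gene passed the test between 1 and 1.5 µM (Pou3f1: 2.36 ± 0.758, edgeR adjusted p = 0.105, and 0.00177 with the block; Sox15: 1.45 ± 0.499, edgeR adjusted p = 0.129). Both overlap a gene on the other strand, Mpdu1 in the case of Sox15. A chosen list of epidermal transcription factors, none of them among the 45, had 3 of 17 genes higher at 1.5 µM and 0 lower (0 at an unadjusted p under 0.05), with a median log2 change of 0.43 (all genes tested: 4.43% higher, median −0.01). The 3 were Grhl3 (2.01 ± 0.278, edgeR adjusted p = 0.00653), Hopx (2.08 ± 0.446, edgeR adjusted p = 0.0288) and Klf4 (1.21 ± 0.269, edgeR adjusted p = 0.0314).

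Genes of cell death and the immune cell surface included 2 of the 3 with the widest spread between cultures at 3 µM. Gsdmc encodes a gasdermin, a protein whose cleaved form opens pores in membranes. It had 0.508, 0.585 and 0.227 CPM at 1 µM, 10.1, 12.1 and 5.39 CPM at 1.5 µM, and 93.9, 78.3 and 11.6 CPM at 3 µM. H60c encodes a ligand of the receptor NKG2D, by which lymphocytes recognise stressed cells, and had 1.47, 1.95 and 0.568 CPM at 1 µM, 10.2, 13.8 and 3.53 CPM at 1.5 µM, and 34.4, 30.1 and 4.07 CPM at 3 µM. In both, replicate 3 at 3 µM lay within the range of the 1.5 µM libraries, so the 2 doses overlapped. For H60c it was near replicate 3 at 1.5 µM and well below replicates 1 and 2. The highest 3 µM library was 8.10 times the lowest for Gsdmc, 8.45 times for H60c and 9.29 times for Gm5416, the widest of the 45. The narrowest were Fndc9 (1.1 times), Ptk6 (1.12 times) and Alox12b (1.18 times). Gsdmc had the largest log2 change of the 45 from 1 to 1.5 µM (4.35 ± 0.810, edgeR adjusted p = 0.0178, up to 0.0814 without replicate 2 at 1 µM). Ceacam19, a member of the carcinoembryonic antigen family of adhesion molecules, had 1.17, 1.12 and 0.625 CPM at 1 µM, 8.15, 8.53 and 3.30 CPM at 1.5 µM, and 19.4, 22.0 and 13.2 CPM at 3 µM, with no overlap. It rose from 1 to 1.5 µM too (2.76 ± 0.396, edgeR adjusted p = 0.00691). H60c was called only with the block (log2 change 2.78 ± 0.868, edgeR adjusted p = 0.0978, and 0.00253 with the block).

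Trbc2, the constant region of the T-cell receptor β chain, was higher at each dose, while its α-chain partner was lower. It had 6, 1 and 3 reads in DMSO, 11, 18 and 5 at 1 µM, 61, 81 and 27 at 1.5 µM, and 179, 246 and 101 at 3 µM. No groups overlapped in CPM. The α-chain gene Trac had 582 reads in DMSO and 21 at 3 µM, and held most of the reads of the T-cell markers (6 genes) in DMSO. Their sum ran from 5.87 to 24.6 CPM in DMSO and from 1.38 to 4.30 CPM at 3 µM. Lck, another of the 6, went the other way, with means of 1.49 CPM in DMSO and 2.63 CPM at 3 µM. The other 4, Cd2, Cd3g, Cd3d and Cd3e, had at most 2 reads in DMSO, and at 3 µM Cd3e had 1 read and the others 0. The step of Trbc2 from 1 to 1.5 µM was called (log2 change 2.29 ± 0.499, edgeR adjusted p = 0.0300, up to 0.108 without replicate 1 at 1.5 µM).

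The other metabolic genes included those with the lowest and the highest share of the 3 µM level at 1.5 µM. Uox encodes urate oxidase, which breaks down uric acid, and had 0 reads in DMSO, 4, 2 and 0 at 1 µM, 14, 28 and 27 at 1.5 µM, and 311, 375 and 552 at 3 µM. Its 1.5 µM mean was 4.08% of the 3 µM mean, the lowest of the 45, and it overlaps Dnase2b on the other strand. Abhd12b, which encodes a hydrolase, had 0, 2 and 0 reads in DMSO, 0.762, 0.487 and 0.114 CPM at 1 µM, 4.90, 5.99 and 3.71 CPM at 1.5 µM, and 4.63, 3.59 and 3.80 CPM at 3 µM. Its last 2 doses overlapped, and the 1.5 µM mean was 122% of the 3 µM mean, the highest of the 45. Both rose from 1 to 1.5 µM, Uox by a log2 change of 3.43 ± 0.613 (edgeR adjusted p = 0.0218, up to 0.103 without replicate 2 at 1 µM) and Abhd12b by 3.39 ± 0.690 (edgeR adjusted p = 0.0242, up to 0.107 without the same library). Rbp2, a cellular retinol-binding protein, had 0 reads in DMSO and means of 1.44, 9.62 and 42.6 CPM at the 3 doses, and was called (2.73 ± 0.564, edgeR adjusted p = 0.0328, up to 0.126 without the same library). Hsd17b2, which oxidises estradiol to estrone, had 0.193, 1.11 and 6.62 CPM and was called as well (2.51 ± 0.443, edgeR adjusted p = 0.014, up to 0.0673 without that library). The carboxylesterase gene Ces2f had 0.768, 2.59 and 9.91 CPM and was not (1.75 ± 0.633, edgeR adjusted p = 0.145, and 0.0464 with the block).

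Among the signalling and ubiquitin genes, Ptk6, a kinase of the Src type found in epithelia (also called Brk), had 0.711, 0.585 and 0.17 CPM at 1 µM, 2.67, 2.96 and 2.55 CPM at 1.5 µM, and 12.3, 13.4 and 12.0 CPM at 3 µM. The cultures were close together at the last 2 doses. Ptk6 was called between 1 and 1.5 µM (log2 change 2.45 ± 0.583, edgeR adjusted p = 0.0386, up to 0.134 without replicate 2 at 1 µM), and so was the RING finger gene Rnf222 (2.23 ± 0.411, edgeR adjusted p = 0.0165, up to 0.0902 without the same library). Fam83c (edgeR adjusted p = 0.10, and 0.0173 with the block), Elmod1 (0.0980, and 0.0119 with the block) and Rnf223 (0.109) were not called, with means at 1.5 µM of 14.4, 88.4 and 46.7% of their 3 µM means. Rnf223 is listed as a pseudogene in the deposited table, and its identifier is not in GENCODE M21.

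Of the 7 genes with little known function, Gm94 had the highest CPM. Gm94 had 2, 1 and 2 reads in DMSO, 4.42, 11.1 and 1.25 CPM at 1 µM, 71.6, 105 and 20.5 CPM at 1.5 µM, and 178, 232 and 32.8 CPM at 3 µM. Replicate 3 was the lowest throughout, and its 3 µM level lay below replicates 1 and 2 at 1.5 µM. 2310042E22Rik (Teddm3 in GENCODE M21) had 3.66, 4.73 and 1.42 CPM at 1 µM, 31.3, 41.3 and 16.9 CPM at 1.5 µM, and 64.7, 56.1 and 44.0 CPM at 3 µM, with no overlap. Gm94 rose from 1 to 1.5 µM by a log2 change of 3.55 ± 0.896 (edgeR adjusted p = 0.0493, up to 0.140 without replicate 1 at 1 µM) and 2310042E22Rik by 3.18 ± 0.479 (edgeR adjusted p = 0.00847). Fndc9 had 0.559, 0.633 and 0.17 CPM at 1 µM, 8.91, 7.65 and 1.27 CPM at 1.5 µM, and 11.4, 10.9 and 10.4 CPM at 3 µM, so replicate 3 was far below the others at 1.5 µM and level with them at 3 µM. Fndc9, Gm11992 and Gm5478 were called too. Psors1c2 was called close to the threshold (edgeR adjusted p = 0.0465, up to 0.183 without replicate 2 at 1.5 µM, and 0.0827 by DESeq2), and 4930438A08Rik was not called (2.64 ± 0.644, edgeR adjusted p = 0.0543, and 0.0109 with the block). Psors1c2 and 4930438A08Rik passed the filter on low counts only through their levels at 3 µM, so their edgeR p-values are not free of the choice of genes.

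Levels per kilobase of exon used the joined exons of each gene in GENCODE M21, so comparisons between genes depend on these gene models. The lengths were 204 bases for Defb14, 294 for Gm5416, 471 for Stfa2 and 2783 for Csta1. On this scale, the highest mean levels at 3 µM were those of Gm94 (197 ± 138 CPM per kb), Gm5416 (154 ± 113), Csta1 (152 ± 93.6), Defb14 (95.4 ± 37.1), Il1f6 (86.9 ± 15.0), Defb3 (77.5 ± 32.7) and Defb6 (65.1 ± 39.3), all SD with n = 3. The spread between cultures does not separate neighbours in this order. The short defensin genes and the short stefin genes Gm5416 and Stfa2 ranked higher on this scale than by CPM, while Csta1 ranked lower. The lowest was Abhd12b (1.02 ± 0.139 CPM per kb).

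The share of the 3 µM level already present at 1.5 µM varied widely among the genes. It ran from 4.08 to 122%, with a median of 31.5%, and 16 genes were under 20%. The lowest were Uox, Gm5416 (4.43%), Defb3 (4.63%), Il24 (6.14%), Psors1c2 (7.49%) and Stfa2 (9.12%), and the highest were Abhd12b, Elmod1 (88.4%), Pla2g2f (69.1%) and Ccl20 (60.2%). In 35 genes all 3 µM libraries lay above all 1.5 µM libraries (23.1% of all genes tested), a contrast that shares the 3 µM libraries with the choice of genes and was not tested. The 10 others were Abhd12b, Acer1, Ccl20, Elmod1, Gm11992, Gm94, Gsdmc, H60c, Pla2g2f and Pou3f1.

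**Figure D4:**
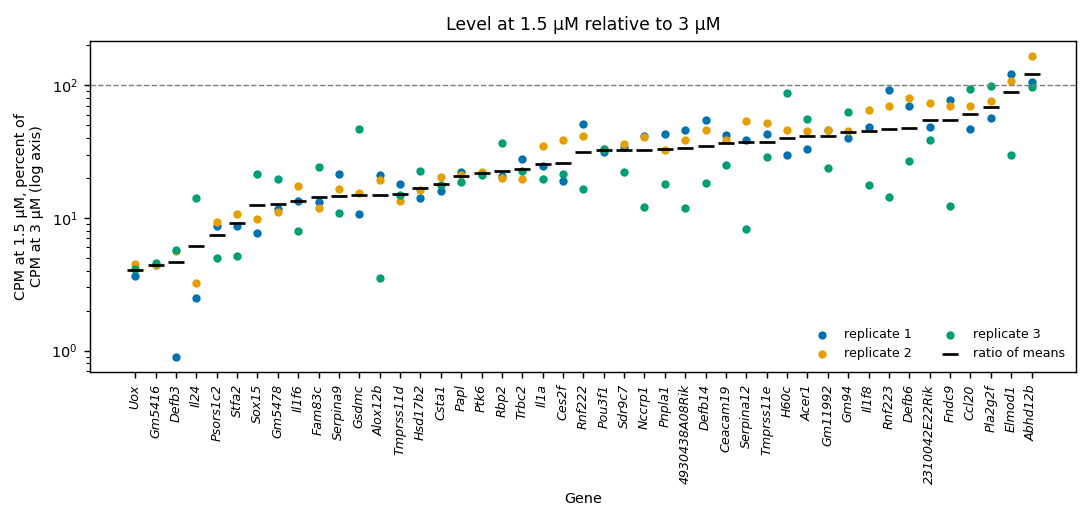
CPM at 1.5 µM as a percent of CPM at 3 µM for each gene (log axis), as the ratio of means (dashes) and within each of the 3 cultures (points). The ratio of means runs from 4.08% for Uox to 122% for Abhd12b, and the dashed line marks 100%.

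Replicate 3 was behind the other cultures for most but not all of the genes. It had the lowest CPM for 37 of the 45 (82.2%) at 1 µM, 35 (77.8%) at 1.5 µM and 31 (68.9%) at 3 µM, against 36.5, 40.6 and 42.8% of all genes tested. The median ratio of replicate 3 to the mean of replicates 1 and 2 was 0.368 at 1 µM, 0.465 at 1.5 µM and 0.742 at 3 µM. At 3 µM it was the highest culture for 11 genes: Ces2f, Defb14, Defb3, Defb6, Il1a, Psors1c2, Rnf222, Rnf223, Serpina9, Tmprss11e and Uox. The median fold between 1.5 and 1 µM was alike in the cultures, at 6.44, 7.10 and 7.82 in replicates 1, 2 and 3. The median of replicate 3 leaves out Gm5416, Stfa2 and Uox, which had 0 reads there at 1 µM. Replicate 3 also had the most fibroblast marker RNA in every group, with 4484 CPM at 3 µM against 164 and 923 CPM in replicates 1 and 2, and the least epithelial marker RNA at 3 µM, with 16283 CPM against 29911 and 33005 CPM. The part of these markers in the low values of replicate 3 was not tested.

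**Figure D5:**
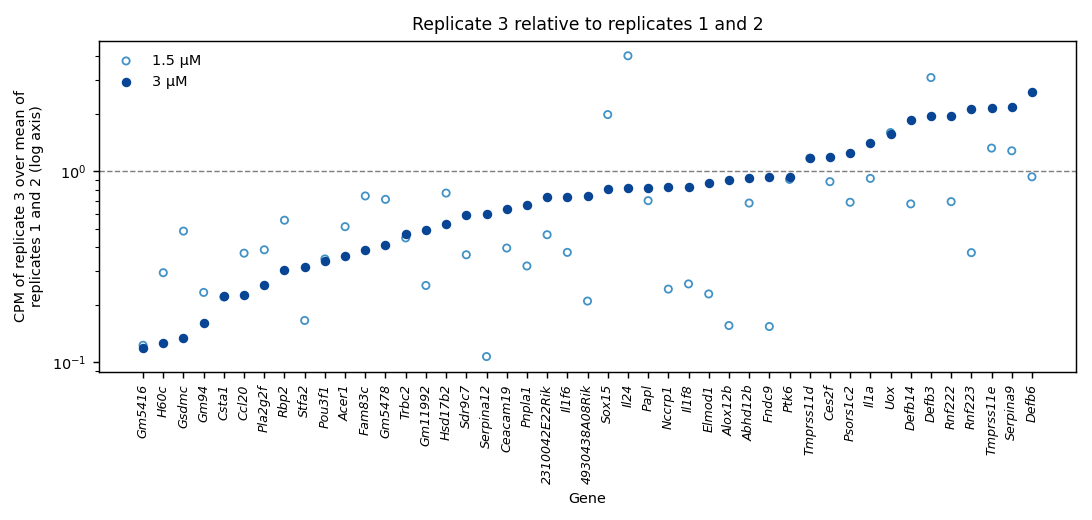
CPM of replicate 3 divided by the mean CPM of replicates 1 and 2, for each gene at 1.5 and 3 µM (log axis). At 3 µM the ratio runs from 0.119 for Gm5416 to 2.61 for Defb6, and the dashed line marks equal levels.

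The interleukin 1 list as a whole had 5 of 8 tested genes higher at 1.5 than at 1 µM and 0 lower (0 at an unadjusted p under 0.05), with a median log2 change of 2.51 (all genes tested: 4.43% higher, median −0.01). Apart from Il1a, Il1f6 and Il1f8 these were Il1f5, the IL-36 receptor antagonist (3.24 ± 0.469, edgeR adjusted p = 0.00747), and Il18 (2.83 ± 0.625, edgeR adjusted p = 0.0310). Il1f9, which encodes IL-36γ, was above the DMSO limit with 4.18 CPM in DMSO and had 319 CPM at 3 µM. On a list of Ly6 family genes outside Lypd, none of them among the 45, 2 of 10 were higher and 0 lower (1 at an unadjusted p under 0.05), with a median of 1.01 (all genes tested: 4.43% higher, median −0.01).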

How the data were processed

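RNA of 12 organoid libraries was analysed. The authors deposited raw read counts per gene, made with TopHat2 2.1, Bowtie 1.1.0 and HTSeq on GRCm38/mm10, per the submitters' processing notes. Whether counting used the strand is not given in the sources used here. The deposited log2 values equal log2 of counts scaled to 10 M reads (M, mega) plus 1 (0 values differed) and were not used further. Per-sample columns left unassigned numbered 0.

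Counts were filtered with filterByExpr on the 4 groups, which left 15316 genes and all 45 genes described, some of which passed through the 3 µM group. They were TMM scaled and fitted with edgeR 4.0.16 (R 4.3.3, glmQLFit and glmQLFTest, two-sided, all 12 libraries, 1 mean per group), with Benjamini-Hochberg adjustment at 0.05. DESeq2 1.42.0, a replicate block, other scalings, filters and left-out libraries were alternatives. Scripts were tested on simulated data. Replicate numbers pair the libraries because each is an animal. Deviations from group means correlated from 0.177 to 0.840 (median 0.505) over the 18 same-number pairs, and their median was −0.212 over 36 pairs of unlike number. Chi-square values between replicates were at least 13.8 per degree of freedom, so none was a copy of another. Tables were handled in Python 3.11.15.

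The genes described, the gene lists and the tests were chosen with earlier results of these data known. Full values are given for the 10 genes highest at 3 µM, the 6 highest at 1 µM of those first detected there, those first detected at 3 µM, the 6 with the lowest adjusted p, the 3 with the largest and the 3 with the smallest ratio between 3 µM libraries, and up to 4 per role among transcription factors, ligands and receptors. Other genes with full values were named after their values were seen. Exon lengths and overlaps are from GENCODE M21 (24902 of 25210 identifiers matched, 79.3% with the same start). Promoters are from RefSeq GRCm38.p6, with 16 of the 45 genes unmatched.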

Additional observations from a re-analysis of the deposited data

How the results depend on the processing

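Libraries of 10.1 to 24.5 M reads limit what can be said at 1 µM, where most of the 45 genes had few reads, and intervals or limits cover counting error only. Over 940 refits of single genes between 1.5 and 1 µM, 673 stayed on the same side of the threshold, 219 lost the call, 48 gained it and 0 changed direction. Of 135 group means, 9 moved by over 1 SD on library size alone. When 1 library was left out of the fit without the replicate block, the count of the 45 genes called ranged from 6 to 33. The count over all genes ranged from 117 to 1112 against 679. The lowest of these were without replicate 2 at 1 µM, with 6 and 117. Dropping replicate 1 or 3 of the 1 µM group left 161 or 196 calls over all genes. Dropping replicate 1, 2 or 3 of the 1.5 µM group left 153, 199 or 427, and dropping replicate 1 or 3 of the 3 µM group gave 437 or 1112. With the replicate block, all genes called rose to 1737 and the 45 to 43. All gained calls are named in the report, and the block lost no call among the 45. The 43 include the 5 genes that passed the filter on low counts only through their levels at 3 µM. DESeq2 called 1053 genes, 39 of them among the 45. With no filter on low counts 400 genes were called, 22 of them among the 45. The 6 libraries of the 2 doses alone called 18 of the 40 genes they could test. Leaving out a whole culture from all 4 groups, chosen after seeing the data, gave 0 calls by edgeR over all genes and among the 45 without culture 1 (41 of the 45 and 1177 of all genes higher at an unadjusted p under 0.05) and without culture 2 (33 and 1152). Without culture 3 it gave 37 and 810. The fits without a culture have fewer libraries, and the cause of the other shifts was not tested. A limit of 5 DMSO reads found 26 genes. First detection at 1, 1.5 and 3 µM was 40, 5 and 0 with no minimum per library, 0, 22 and 23 with 50 reads in each library, and 25, 19 and 1 with reads scaled to the smallest total. With 1 culture left out it ranged from 35 to 39, from 5 (without replicate 3) to 9, and from 0 (without replicate 1) to 1.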
